A study of Mus musculus with 24 samples.

Results

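The effect of losing 1 Glo1 allele was compared between liver and kidney of the mouse as a difference of differences. The genotype effect in kidney, Glo1+/- minus wild type (WT), was subtracted from the genotype effect in liver. A positive difference therefore means that a transcript stood higher in Glo1+/- relative to WT in liver than in kidney. Reported are 8046 of the 16593 genes named on the array, through 11462 of its 25697 probes (44.6%). They were chosen by mean signal: a probe is reported where its mean over the 6 arrays of a tissue lay above the median of all probes in liver (8.22208 on the log2 scale) and also in kidney (8.23354). The size of the difference played no part in the choice, and levels are given as a description. Just inside the threshold lay probes of Mettl2 and Slc22a13, with liver means of 8.2221 each. Just outside lay Socs1, with a liver mean of 8.22206, and Adar, with a kidney mean of 8.23353. The scale has a floor near 8, and 5363 of the reported probes had a mean under 9 in liver or kidney, where changes can be understated. The highest value was 15.3791, and whether changes near that top are understated too was not tested. For 600 reported probes the mean of 1 or more of the 4 groups lay under its tissue's threshold, so that another group carried them past it. Of the named probes this held for the second Hp probe, Orm1, Cidec, Mat1a, F9, Hamp and Fos, whose Glo1+/- kidney means lay under the threshold, and for both called Pcsk4 probes, whose WT kidney means did. The sign of the kidney effect of such a probe is bound to the choice, and their values are a description.

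Glo1 encodes glyoxalase 1, which uses glutathione to clear methylglyoxal, a reactive by-product of glycolysis. Liver and kidney both make glucose and burn fatty acids in mitochondria and peroxisomes, under the lipid-sensing receptor PPAR alpha. Liver also synthesises fatty acids, secretes most plasma proteins and makes acute phase proteins in inflammation, while the kidney tubule reabsorbs filtered solutes.

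Total RNA was measured on Illumina bead arrays from 3 Glo1+/- livers, 3 WT livers, 3 Glo1+/- kidneys and 3 WT kidneys. Every animal was labelled C57BL/6J, female and 36 weeks old and was kept on standard chow. The Glo1+/- mice carried a heterozygous germline knockout in a line re-derived by embryo transfer, so 1 intact Glo1 allele remained in all their cells. The labels do not say which liver and kidney came from the same animal or which mice were littermates, and p-values measure the spread between these samples. The fit takes 1 spread per probe for all 4 groups. Standard errors are therefore equal in liver and kidney, and they can understate a group that varied more than the others.

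Hepatocyte markers had medians of 14.25 to 14.45 in the liver libraries, and kidney tubule markers had medians of 8.109 to 8.196 in liver and 13.83 to 14.09 in kidney. Of the defining markers, Fgb and Tat lay near the floor in liver and Slc13a1 in kidney. The hepatocyte marker Alb read 8.96 to 9.07 in Glo1+/- livers and 9.55 to 9.86 in WT livers, without overlap. Across probes, pairs of liver libraries had correlations of 0.986 to 0.996 and pairs of kidney libraries 0.991 to 0.996. In all 12 libraries labelled female, the female-specific transcript Xist lay at the floor (8.08 to 8.25) and the Y-linked Eif2s3y read 10.33 to 11.24. All 3 WT kidney libraries carried transcripts of another tissue to some degree. The hepatocyte list had medians of 8.18 to 8.27 in the Glo1+/- kidneys, against 10.03 in WT kidney 1 and 8.24 and 8.17 in the other WT kidneys. The adipocyte list had medians of 8.12 to 8.16 in the Glo1+/- kidneys, against 9.34 in WT kidney 3 and 8.11 and 8.30 in WT kidney 1 and 2. Its summed level was 11.003 to 11.18 in the Glo1+/- kidneys, against 11.25, 11.67 and 12.26 in the WT kidneys. Adipoq, the fat hormone adiponectin, read 10.57 in WT kidney 3 and 9.48 in WT kidney 2, while Plin1, Retn and Fabp4 lay at the floor in all 6 kidneys. Several genes high in WT kidney 1 or 3 are given with and without those libraries below. Where both are left out, WT kidney 2 is the 1 WT kidney and is assumed to vary like the other groups. The arrays lay on 3 slides: WT liver 1 and 2 on slide 1, Glo1+/- kidney 2 and 3 on slide 3, and the other 8 arrays on slide 2. Values given for slide 2 come from a fit with the slide as a block, and rest on 1 WT liver and 1 Glo1+/- kidney whose spread is taken from the other groups.

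**Figure D1:**
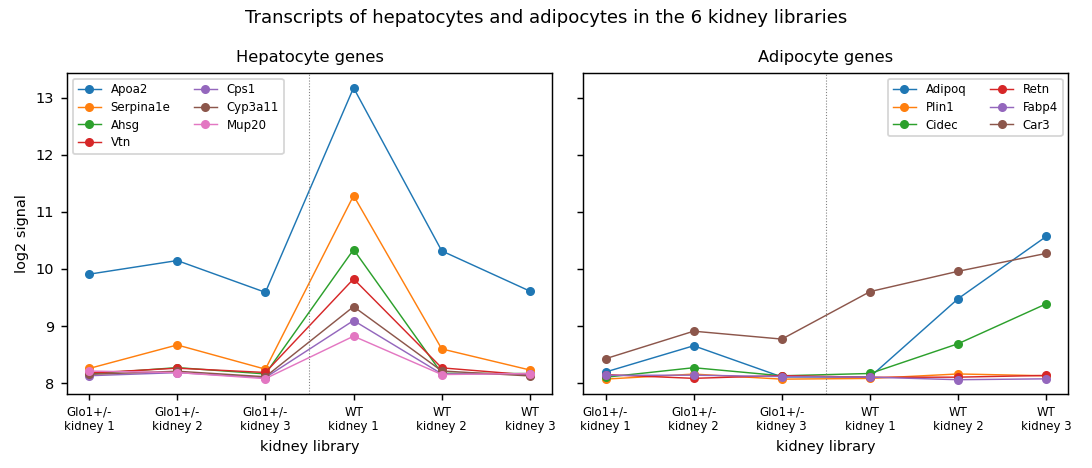
Hepatocyte genes (left) and adipocyte genes (right) in the 6 kidney libraries, as log2 signal on the vertical axis. Hepatocyte genes stand out in WT kidney 1, where Apoa2 read 13.17, and Adipoq, Cidec and Car3 were highest in WT kidney 3.

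Glo1 itself was lower in Glo1+/- in both organs. It read 13.22, 12.90 and 13.15 in Glo1+/- livers, against 13.91, 14.16 and 13.85 in WT livers. Kidneys had 11.56, 11.31 and 12.06 in Glo1+/-, against 12.51, 12.62 and 12.45 in WT. The genotypes did not overlap in either tissue, and the liver effect of -0.88 ± 0.14 (limma, adjusted p = 0.0037) stood beside a kidney effect of -0.88 ± 0.14 (adjusted p = 0.011) on the log2 scale. As folds these are 0.543 and 0.542. The difference was 0.002 ± 0.20 (± is the standard error, adjusted p = 0.999). Leaving out 1 array at a time gave differences between -0.17 and 0.21. On slide 2 alone the difference was 0.21, with effects of -0.76 in liver and -0.96 in kidney.

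Few transcripts passed the test for a genotype effect that differed between the organs. For the difference, 13 of the 11462 reported probes passed at an adjusted p under 0.05, 7 higher and 6 lower, against backgrounds of 0.0545% higher and 0.0311% lower over all 25697 probes. The 13 probes are 0.113% of those reported. At an unadjusted p under 0.05 stood 1274 reported probes (11.1%), 478 higher and 796 lower, where 8.2% of all probes did. In liver 173 reported probes rose and 209 fell (background 0.817% and 0.969%), and in kidney 34 rose and 16 fell (background 0.144% and 0.105%). Of these, 13 passed in both tissues, all with the same sign, and 0 passed in both with opposite signs. Across the reported probes, which are not independent replicates, the effects in liver and kidney correlated at r = 0.350 (Spearman's rho 0.325) and shared their sign in 60.7%. The median difference was -0.02 and 45.6% of the differences were positive, which moved to 50.1% after quantile normalization and to 51.4% after centring each array.

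**Figure D2:**
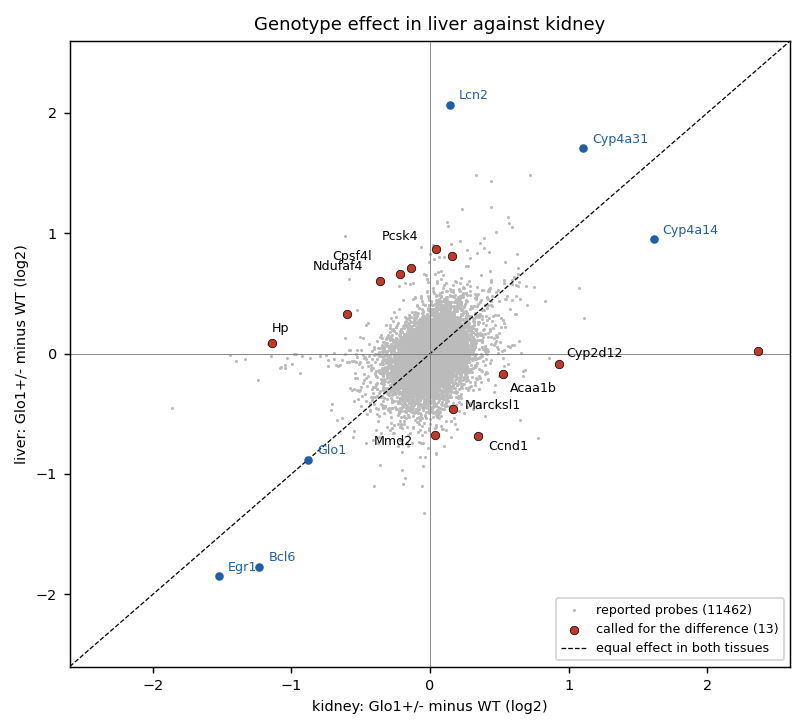
Genotype effect in liver (vertical axis) against kidney (horizontal axis), both as Glo1+/- minus WT on the log2 scale, for the 11462 reported probes in grey. Red points are the 13 probes called for the difference, which lie away from the dashed line of equal effect, and blue points such as Glo1 are genes named for comparison.

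The probes called in the positive direction belong to Hp, Ndufaf4, Cpsf4l, Pcsk4 and 1 probe with no gene name. Hp encodes haptoglobin, the plasma protein that binds free haemoglobin. In liver it read 14.79, 14.81 and 14.87 in Glo1+/- and 14.79, 14.69 and 14.73 in WT, with an effect of 0.09 ± 0.15. In kidney it read 8.26, 8.30 and 8.21 in Glo1+/-, close to the floor, against 9.80, 8.90 and 9.49 in WT. On this probe the contrast lay in kidney, where Glo1+/- was below every WT library (effect -1.14 ± 0.15, adjusted p = 0.0017). The WT kidneys varied most, with an SD of 0.46 beside 0.04 to 0.05 in the other groups, which the shared standard error does not show. The liver values lay near the top of the scale. The difference was 1.23 ± 0.21 (adjusted p = 0.030). A second Hp probe, which passed the signal rule through its WT kidneys, gave 0.93 ± 0.17 (adjusted p = 0.041), and the remaining one 0.88 ± 0.17, which did not pass (adjusted p = 0.064). On the second probe the liver groups were apart upward, without passing (0.33 ± 0.12, adjusted p = 0.199). Hp is bright in adipose tissue (14.91 ± 0.12 in Glo1+/- and 14.90 ± 0.07 in WT, SD, n = 3 each) as well as in liver. Its 2 highest kidney values were in the WT libraries with hepatocyte or adipocyte transcripts, and without both the difference was 0.73 (adjusted p = 0.0995). Without WT kidney 2, its lowest WT value, it was 1.47. The part of those tissues in the Hp result was not tested further.

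Ndufaf4 encodes an assembly factor of mitochondrial complex I. Livers had 11.59, 11.55 and 11.50 in Glo1+/-, against 10.65, 10.91 and 11.09 in WT, and kidneys had 11.28, 11.38 and 11.18 in Glo1+/-, against 11.53, 11.33 and 11.65 in WT. It rose in liver (0.66 ± 0.11, adjusted p = 0.0042) with no overlap of the genotypes, while the kidney groups overlapped at -0.22 ± 0.11 (adjusted p = 0.69). The difference was 0.88 ± 0.16 (adjusted p = 0.038). Of the 48 measured subunits of oxidative phosphorylation, 0 passed for the difference, 30 lay above 0 and their median was 0.06. Ndufb7, a complex I subunit, had the largest positive value of them (0.42 ± 0.14, adjusted p = 0.442).

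Cpsf4l, a relative of the cleavage and polyadenylation factor Cpsf4, read 11.55, 11.56 and 11.27 in Glo1+/- livers and 10.79, 10.68 and 10.77 in WT livers. Kidney values were 9.23, 9.15 and 9.17 in Glo1+/- and 9.14, 9.34 and 9.46 in WT. The liver groups were apart (0.71 ± 0.10, adjusted p = 0.0016) and the kidney groups overlapped (-0.14 ± 0.10). The difference was 0.85 ± 0.15 (adjusted p = 0.030). Pcsk4, a proprotein convertase known mainly from germ cells, had 2 reported probes called. On the brighter of them the livers had 10.07, 10.25 and 10.34 in Glo1+/-, against 9.32, 9.44 and 9.48 in WT. Kidneys lay near the floor, at 8.38, 8.33 and 8.35 in Glo1+/- and 8.17, 8.22 and 8.2003 in WT. Pcsk4 rose in liver (0.81 ± 0.08, adjusted p = 5.50e-05), and the kidney effect of 0.16 ± 0.08 had the same sign (adjusted p = 0.698). The differences of the called probes were 0.65 ± 0.12 (adjusted p = 0.038) and 0.83 ± 0.13 (adjusted p = 0.015), and the other reported probe had 0.50 ± 0.17 (adjusted p = 0.409). A further probe, too dim in kidney to be reported, also passed (0.68 ± 0.11, adjusted p = 0.015), and the last lay near the floor in both organs.

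In the negative direction Ccnd1, Cyp2d12, Mmd2, Acaa1b and Marcksl1 were called, with a second probe that has no gene name. Ccnd1 encodes cyclin D1, which drives entry into the cell cycle. Its values were 10.05, 9.82 and 10.20 in Glo1+/- livers and 10.44, 10.68 and 10.9998 in WT livers. In kidneys they were 13.25, 13.14 and 13.12 in Glo1+/- and 12.70, 12.84 and 12.94 in WT. The genotypes were apart in opposite directions: Ccnd1 fell in liver (-0.68 ± 0.13, adjusted p = 0.0079), and every Glo1+/- kidney lay above every WT kidney, where the effect did not pass alone (0.34 ± 0.13, adjusted p = 0.424). The difference was -1.03 ± 0.18 (adjusted p = 0.034) and was -1.40 on slide 2 alone. The other Ccnd1 probes had -0.82 ± 0.20 and -0.58 ± 0.18 and did not pass (adjusted p = 0.155 and 0.376).

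Cyp2d12, a cytochrome P450 of the drug-metabolising CYP2D family, gave the smallest adjusted p of the reported probes. Livers lay near the floor, at 8.31, 8.44 and 8.34 in Glo1+/- and 8.47, 8.39 and 8.49 in WT, where an effect could hardly be measured. Kidneys read 13.14, 13.15 and 13.19 in Glo1+/- and 12.11, 12.31 and 12.28 in WT, without overlap. Cyp2d12 rose in kidney (0.93 ± 0.09, adjusted p = 9.94e-05), a fold of 1.90, and the difference was -1.02 ± 0.12 (adjusted p = 0.0023). Among the 13 called reported probes it was the 1 called in all 12 fits that left out 1 array, with differences of -1.06 to -0.96.

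Acaa1b, a peroxisomal thiolase that completes cycles of beta-oxidation and a PPAR alpha target, was bright in both organs. Livers had 14.51, 14.46 and 14.56 in Glo1+/- and 14.56, 14.80 and 14.68 in WT. Kidneys had 14.25, 14.03 and 14.05 in Glo1+/- and 13.66, 13.49 and 13.60 in WT. The kidney rise passed (0.52 ± 0.08, adjusted p = 0.0064), while the liver effect of -0.17 ± 0.08 had the opposite sign and did not (adjusted p = 0.339). The difference was -0.70 ± 0.11 (adjusted p = 0.026), and -0.84 on slide 2 alone.

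Mmd2, a membrane protein of the progestin and adiponectin receptor family, read 9.14, 9.43 and 9.29 in Glo1+/- livers and 9.90, 9.97 and 10.01 in WT livers. It fell in liver (-0.67 ± 0.09, adjusted p = 6.92e-04), and kidney lay at 8.39 to 8.59 in Glo1+/- and 8.43 to 8.54 in WT, close to the floor. Its difference was -0.71 ± 0.13 (adjusted p = 0.035). Marcksl1, an actin-binding substrate of protein kinase C, was dim everywhere, with 8.36, 8.43 and 8.48 in Glo1+/- livers, 8.86, 8.94 and 8.84 in WT livers, 8.67, 8.92 and 8.67 in Glo1+/- kidneys and 8.52, 8.57 and 8.67 in WT kidneys. It fell in liver (-0.46 ± 0.08, adjusted p = 0.0059), and the difference was -0.63 ± 0.11 (adjusted p = 0.041). None of its other 3 probes lay above the threshold.

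The probes without a gene name are identified here only by their array IDs. ILMN_1216322 had the largest called difference, -2.34 ± 0.37 (adjusted p = 0.018). It read 14.64, 14.56 and 14.64 in Glo1+/- livers and 14.46, 14.56 and 14.75 in WT livers, and 13.21, 11.75 and 12.25 in Glo1+/- kidneys and 10.62, 9.58 and 9.95 in WT kidneys. The liver groups overlapped near the top of the scale and the kidney groups were apart, with a kidney effect of 2.36 ± 0.26 (adjusted p = 5.19e-04). That standard error is shared by both tissues. The SDs were 0.05 in Glo1+/- and 0.15 in WT livers, and 0.74 in Glo1+/- and 0.53 in WT kidneys. ILMN_1244836 read 10.92, 10.88 and 11.18 in Glo1+/- livers against 10.36, 10.22 and 10.60 in WT livers, and 11.11, 10.83 and 10.77 in Glo1+/- kidneys against 11.35, 11.10 and 11.35 in WT kidneys. Its difference was 0.97 ± 0.17 (adjusted p = 0.038), and 0.55 on slide 2 alone.

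**Figure D3:**
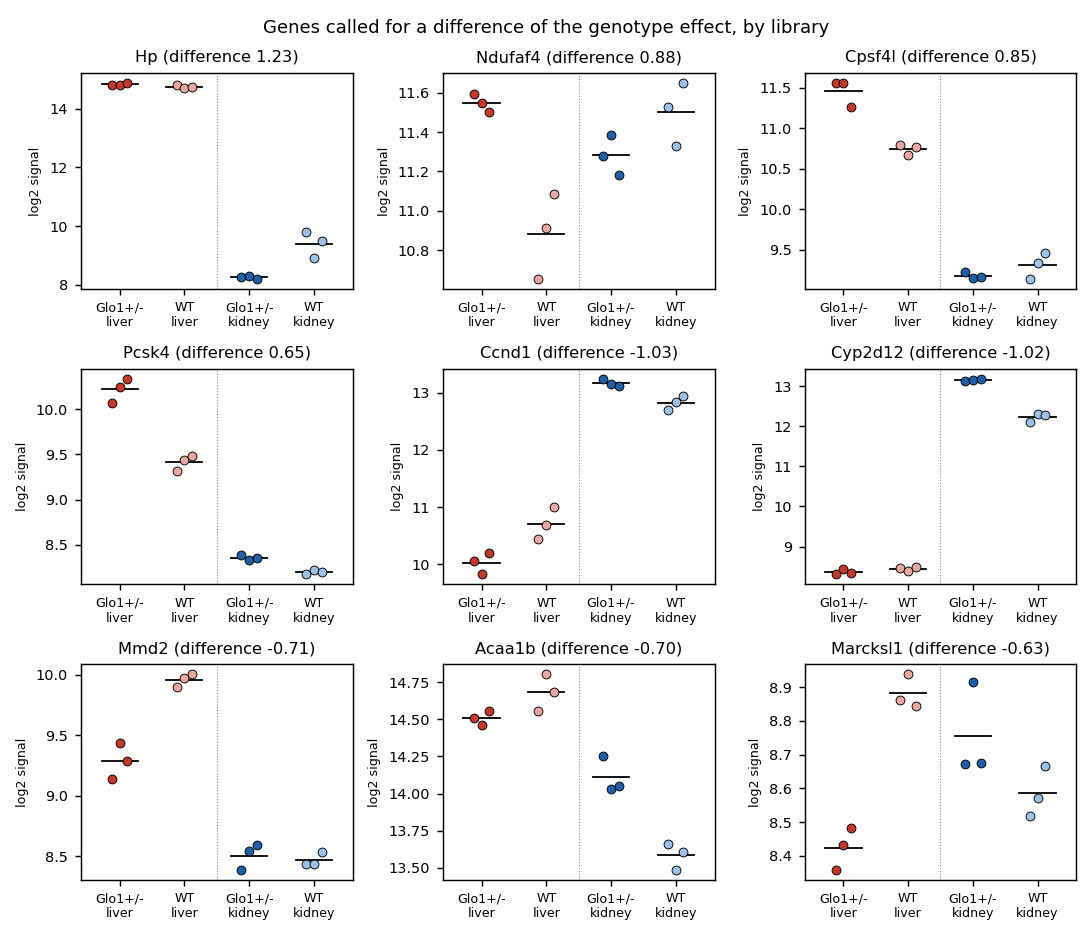
Log2 signal of the 9 named genes called for the difference, by library, with Glo1+/- left of WT in liver (red) and in kidney (blue); bars are group means of 3 libraries and each panel has its own axis. The contrast lay in kidney for Hp and Cyp2d12, and in liver for Ndufaf4, Cpsf4l, Pcsk4 and Mmd2. The Pcsk4 kidney groups were also apart, near the floor. For Ccnd1 the groups were apart in opposite directions. For Acaa1b the larger effect lay in kidney, and its livers barely separated (14.5568 in Glo1+/- against 14.5587 in WT). For Marcksl1 it lay in liver, and its kidneys barely separated (8.67271 in Glo1+/- against 8.66743 in WT).

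Of the 13 called probes, 8 were also called for the liver effect and 5 for the kidney effect. Effects of opposite sign were found in 10, while 60.7% of all reported probes shared their sign. A call for liver minus kidney favours opposite signs, so this count is a description. In several of the 10, 1 effect was near 0, as for Mmd2 in kidney (0.04), Hp in liver (0.09) and Cyp2d12 in liver (-0.09). None of the 13 differences changed sign under the 25 alternatives tried. Several of these alter only the variance model or the filter and cannot change a sign, and the stricter filter kept 11 of the 13. The number that stayed called varied widely. When 1 array was left out, between 1 probe (without Glo1+/- kidney 3) and 185 probes (without WT liver 3) were called. With the slide as a fixed block, which leaves slide 2 alone with 1 WT liver and 1 Glo1+/- kidney, 20 were called, among them Ccnd1, Cyp2d12, Acaa1b and ILMN_1216322 of the 13. Without WT kidney 1 and 3 together, a setting chosen after seeing the data, 7 were called and 2 of the 13 remained. The leave-one-out counts show how far 1 array moves the result.

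**Figure D4:**
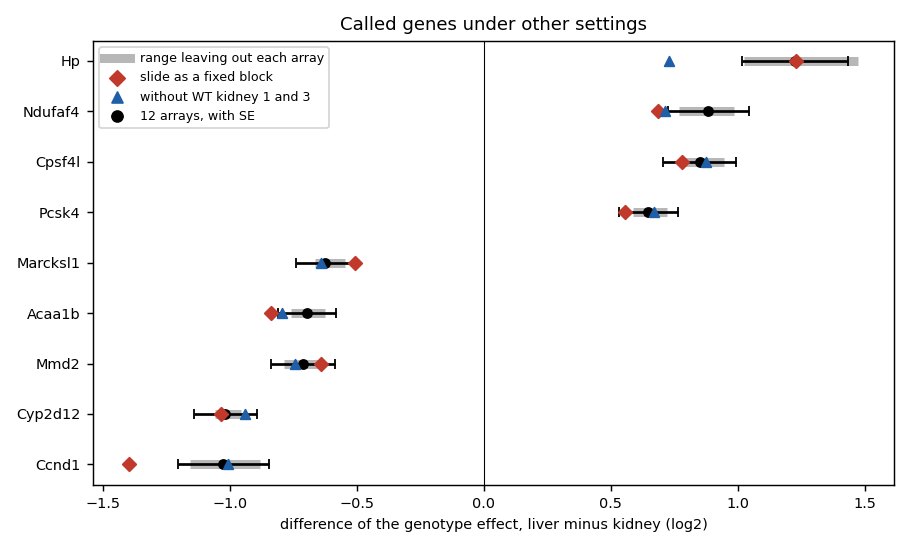
Difference of the genotype effect (liver minus kidney, log2) for the 9 named called genes: black points with standard errors from the 12 arrays, grey bars for the range when each array was left out, red diamonds with the slide as a fixed block and blue triangles without WT kidney 1 and 3. Every value kept its sign, and Hp moved most, to 0.73 without both WT kidneys.

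Further genes had large differences that did not pass. Lcn2, a lipocalin induced in inflammation, read 10.99, 11.44 and 11.45 in Glo1+/- livers and 10.28, 8.72 and 8.68 in WT livers, so WT liver 1 stood apart from the other WT livers. Kidneys had 8.53, 8.92 and 8.65 in Glo1+/- and 8.501, 8.85 and 8.33 in WT. Lcn2 rose in liver (2.07 ± 0.28, adjusted p = 9.63e-04), but its difference of 1.93 ± 0.40 missed the threshold (adjusted p = 0.082). Plin4, a coat protein of lipid droplets, had 1.59 ± 0.31 (adjusted p = 0.061). It rose in liver (0.98 ± 0.22, adjusted p = 0.027), with 10.12, 9.87 and 10.13 in Glo1+/- and 8.93, 9.37 and 8.88 in WT. Its kidney values were 8.24, 8.39 and 8.19 in Glo1+/- and 8.16, 8.96 and 9.53 in WT, and they were high in the same WT libraries as Adipoq. Without WT kidney 1 the Plin4 difference was 1.95 (adjusted p = 4.88e-04), and without WT kidney 3 it was 1.27. Car3, a carbonic anhydrase abundant in fat and liver, fell in kidney (-1.24 ± 0.15, adjusted p = 9.58e-04), with 8.43, 8.91 and 8.77 in Glo1+/- and 9.60, 9.96 and 10.27 in WT, and its difference was 1.02 ± 0.22 (adjusted p = 0.082). That difference was 0.86 without WT kidney 3 and 1.55 on slide 2 alone.

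Gstp2, a glutathione transferase, rose in liver (1.203 ± 0.13, adjusted p = 1.29e-04), with 10.30, 10.42 and 10.44 in Glo1+/- and 9.31, 8.87 and 9.38 in WT. Its difference was 0.98 ± 0.19 (adjusted p = 0.058), and 0.54 on slide 2 alone. Camk2b, a subunit of the calcium-dependent kinase CaMKII, also rose in liver (0.65 ± 0.10, adjusted p = 0.0017), with a difference of 0.68 ± 0.13 (adjusted p = 0.064). Their kidney effects were 0.23 ± 0.13 for Gstp2, which was 0.47 on slide 2, and -0.03 for Camk2b. On the negative side, Acly, Me1 and Sgk1 came closest. Sgk1, a kinase that stimulates sodium uptake in the distal nephron, read 10.67, 11.03 and 10.85 in Glo1+/- livers against 11.22, 11.43 and 11.47 in WT livers, and 12.83, 13.15 and 12.76 in Glo1+/- kidneys against 12.25, 12.69 and 12.61 in WT kidneys. It fell in liver (-0.52 ± 0.13, adjusted p = 0.047), its kidney groups were apart upward without passing (0.40 ± 0.13, adjusted p = 0.332), and the difference was -0.92 ± 0.18 (adjusted p = 0.067).

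Named pathways were described over 32 gene lists. A gene counted as measured where its brightest reported probe passed the signal rule, and each list is read against a median difference of -0.02 with 45.6% of values above 0 over all reported probes. Called genes of a list are read against 3.33% of reported probes called in liver and 0.436% in kidney. Counts at an unadjusted p under 0.05 for the difference are read against 11.1% of reported probes and 8.2% of all probes. Beyond the genes with the most extreme difference of each list, others named here were chosen after their values were seen: Ehhadh, Cpt2, Cyp4a31, Angptl4, Slc25a20, Eci2, Elovl6, Acaca, Srebf1, Lpin1, Tubb5, Tuba1b, Krt8, Mcm5, Ccnd2, Fos, Jun, Klf2, Serpina3n, Orm1, Hpx, Apoa1, Apoa4, Ciart, Per1, Pdia3, Calr and Car3.

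Several genes of fatty acid oxidation and PPAR alpha targets rose in each organ. Of 31 measured genes, 7 were called higher in liver and 8 in kidney, where 0.817% and 0.144% of all probes were. Medians were 0.31 in liver and 0.43 in kidney, and the median difference was -0.05 (11 above 0, 20 below 0, 1 called). Eci2, which isomerises unsaturated fatty acyl-CoA, rose by 0.64 ± 0.09 in liver (adjusted p = 0.0019) and 0.61 ± 0.09 in kidney (adjusted p = 0.0066). The carnitine carrier Slc25a20 likewise had 0.57 ± 0.12 in liver (adjusted p = 0.020) and 0.62 ± 0.12 in kidney (adjusted p = 0.034). The fatty acid omega-hydroxylase Cyp4a31 had 1.71 ± 0.21 in liver (adjusted p = 3.49e-04) and 1.10 ± 0.21 in kidney (adjusted p = 0.032), and its difference of 0.61 ± 0.29 did not pass (adjusted p = 0.617). On slide 2 alone that difference was -0.01.

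Acaa1b, described above, was the called gene of this list, and next to it stood Ehhadh, the bifunctional enzyme that precedes it in the peroxisome. Ehhadh had 10.35, 10.43 and 10.64 in Glo1+/- livers and 10.40, 10.65 and 10.78 in WT livers, and 11.74, 12.05 and 11.93 in Glo1+/- kidneys and 11.20, 11.04 and 11.43 in WT kidneys. The liver groups overlapped (-0.14 ± 0.12, adjusted p = 0.7) and the kidney groups were apart (0.68 ± 0.12, adjusted p = 0.025). Its difference of -0.82 ± 0.18 did not pass over all probes (adjusted p = 0.087). Cpt2, the inner-membrane carnitine palmitoyltransferase, also had its larger effect in kidney. Its liver effect was 0.10 ± 0.09. Kidneys read 13.07, 12.89 and 12.81 in Glo1+/- and 12.22, 12.24 and 12.38 in WT, an effect of 0.64 ± 0.09 (adjusted p = 0.0030), and the difference was -0.54 ± 0.13 (adjusted p = 0.155). Pdk4, which blocks entry of pyruvate into the citric acid cycle, had the largest negative difference of the list (-1.201 ± 0.32, adjusted p = 0.254). Its groups were apart in opposite directions, with 8.79, 8.58 and 8.72 in Glo1+/- livers and 9.25, 9.70 and 8.80 in WT livers, and 10.78, 10.02 and 10.14 in Glo1+/- kidneys and 9.08, 9.95 and 9.95 in WT kidneys. Angptl4, a secreted inhibitor of lipoprotein lipase, had 0.54 ± 0.21 in liver (adjusted p = 0.234) and rose in kidney (1.07 ± 0.21, adjusted p = 0.039).

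Of 29 measured genes of fatty acid and triglyceride synthesis, 6 fell and 1 rose in liver, where 0.969% and 0.817% of all probes did, and 22 did not pass. In kidney 0 passed. The medians were -0.19 in liver and -0.02 in kidney, and the median difference was -0.12, with 9 genes above 0 and 20 below, 7 of them below at an unadjusted p under 0.05 and 0 called. Acly, the citrate lyase that supplies cytosolic acetyl-CoA, had 13.10, 13.34 and 13.11 in Glo1+/- livers and 13.90, 13.89 and 13.75 in WT livers. Kidneys had 12.91, 12.97 and 12.75 in Glo1+/- and 12.82, 12.70 and 13.01 in WT. The liver groups were apart (-0.66 ± 0.10, adjusted p = 0.0016), the kidney groups overlapped (0.03 ± 0.10), and the difference was -0.70 ± 0.14 (adjusted p = 0.061). Me1, the malic enzyme that makes NADPH for lipogenesis, fell in liver (-0.64 ± 0.10, adjusted p = 0.0037) with a difference of -0.75 ± 0.15 (adjusted p = 0.061). Elovl6, which elongates palmitate, fell in liver (-0.74 ± 0.12, adjusted p = 0.0042) and had a difference of -0.69 ± 0.18 (adjusted p = 0.205). Acss2, the cytosolic acetyl-CoA synthetase, fell in liver (-0.63 ± 0.14, adjusted p = 0.026), with a difference of -0.71 ± 0.20 (adjusted p = 0.27) that was -0.33 on slide 2. The lipogenic transcription factor Srebf1 and the carboxylase Acaca fell in liver (-0.61 ± 0.12 and -0.51 ± 0.09, adjusted p = 0.011 and 0.0070), with kidney values of the same sign (-0.31 and -0.23) that did not pass. Lpin1, a phosphatidate phosphatase, rose in liver (1.14 ± 0.18, adjusted p = 0.0033), and its kidney groups were also apart upward (0.56 ± 0.18, adjusted p = 0.331). On slide 2 alone the list's median difference was -0.02.

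Cholesterol synthesis had a median difference of -0.07, with 8 of 18 measured genes above 0 and 0 called. Sc5d, a late sterol desaturase, fell in liver (-0.78 ± 0.11, adjusted p = 0.0015), against -0.02 ± 0.11 in kidney, and its difference was -0.76 ± 0.16 (adjusted p = 0.082), or -0.43 on slide 2. Msmo1, an earlier demethylating oxidase, had the opposite sign (0.64 ± 0.22, adjusted p = 0.442), and 1.21 on slide 2. The list's median was 0.24 on slide 2 alone. Lipid droplet proteins had a median of 0.04 (14 of 21 above 0, 0 called). Cidec, which fuses lipid droplets, had a difference of 1.204 ± 0.33 (adjusted p = 0.268), with 8.10, 8.27 and 8.13 in Glo1+/- kidneys and 8.17, 8.69 and 9.39 in WT kidneys, the highest in the WT libraries with Adipoq. Without WT kidney 3 that difference was 0.88. Choline and phospholipid metabolism had a median of 0.01 (10 of 20 above 0, 0 called). Gpcpd1, which cleaves glycerophosphocholine, rose in liver (1.06 ± 0.17, adjusted p = 0.0036), against 0.13 ± 0.17 in kidney, with a difference of 0.93 ± 0.24 (adjusted p = 0.221). On slide 2 the difference was 0.31 and the liver effect 0.46, and the WT livers had 11.55, 11.74 and 12.54. Pnpla7, a lysophospholipase, had -0.53 ± 0.17 (adjusted p = 0.38).

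Among glucose-producing enzymes Pck1 had the largest difference. Pck1, the phosphoenolpyruvate carboxykinase that commits carbon to gluconeogenesis, read 9.96, 10.02 and 9.98 in Glo1+/- livers and 9.62, 9.84 and 9.61 in WT livers. Kidneys had 10.10, 10.19 and 9.90 in Glo1+/- and 8.68, 8.68 and 9.49 in WT. The genotypes did not overlap in either organ, the liver effect was 0.29 ± 0.16 (adjusted p = 0.416), and Pck1 rose in kidney (1.11 ± 0.16, adjusted p = 0.0030). The difference of -0.81 ± 0.22 did not pass (adjusted p = 0.264). Over 15 measured genes of gluconeogenesis the medians were 0.17 in liver and 0.24 in kidney, and the difference had a median of -0.06 with 0 called. G6pc, glucose-6-phosphatase, had -0.40 ± 0.33 and changed sign to 0.42 on slide 2 alone. Glycolysis had a median of -0.05 (7 of 15 above 0, 0 called), with Pkm, a pyruvate kinase, at -0.36 ± 0.20 and Pfkfb2, a regulator of phosphofructokinase, at 0.23 ± 0.14, which was -0.05 on slide 2. Amino acid breakdown and the urea cycle had a median of -0.10 (11 of 33 above 0, 0 called). Its largest values were Kynu, an enzyme of tryptophan breakdown (-0.78 ± 0.23, adjusted p = 0.285), and Mat1a, the hepatic methionine adenosyltransferase (0.74 ± 0.52). Mat1a read 8.24, 8.33 and 8.11 in Glo1+/- kidneys and 10.51, 8.31 and 8.13 in WT kidneys, highest in WT kidney 1, and without that library its difference was -0.02.

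Acute phase proteins had the highest median difference of the 32 lists, 0.52, with 13 of 17 measured genes above 0 and 9 of them at an unadjusted p under 0.05, and Hp was called. Liver had 2 genes called higher (background 0.817%) and a median of 0.09, and kidney had 1 called lower, Hp (background 0.105%), and a median of -0.11. Beside this stood the hepatocyte transcripts of WT kidney 1: without that library the median was 0.30, and without WT kidney 1 and 3 it was 0.33. For 4 of the 17 genes, Orm1 among them, the Glo1+/- kidney mean lay under the signal threshold, so the median is a description. Serpina3n, a protease inhibitor, rose in liver (0.58 ± 0.13, adjusted p = 0.029), with 13.74, 13.83 and 13.92 in Glo1+/- and 13.45, 13.19 and 13.14 in WT. Its difference was 0.72 ± 0.18 (adjusted p = 0.206), and 0.59 without WT kidney 1. Orm1, the glycoprotein orosomucoid, had a difference of 0.74 ± 0.27, and 0.40 without that library, with kidney values of 8.15, 8.15 and 8.08 in Glo1+/- and 9.41, 8.33 and 8.48 in WT. Hpx, the haem-binding protein hemopexin, turned to -0.12 without WT kidney 1 (0.52 ± 0.44 with it), and Hamp, the iron hormone hepcidin, had 0.77 ± 0.51 with that library and 0.04 without it.

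The same library moved bile acid and lipoprotein genes. Their median difference was 0.27 (15 of 23 above 0, 0 called) and -0.01 without WT kidney 1. For 3 of the 23 the Glo1+/- kidney mean lay under the signal threshold. Apoa2, an apolipoprotein of high-density lipoprotein, read 9.91, 10.15 and 9.59 in Glo1+/- kidneys and 13.17, 10.32 and 9.61 in WT kidneys. Its difference was 1.13 ± 0.74 with that library and 0.06 without it. Apoa1 likewise had 0.99 and 0.08, and Apoc1 1.44 and 0.52. Apoa4, an apolipoprotein of triglyceride-rich particles, did not depend on it, with 0.62 ± 0.26 (adjusted p = 0.552) and 0.63 without the library. Coagulation and complement factors had a median of 0.07 (20 of 28 above 0, 0 called) and -0.04 without WT kidney 1, and 7 of the 28 had a Glo1+/- kidney mean under the signal threshold. C8b, a complement component, had 0.49 ± 0.16 (adjusted p = 0.422), or 0.37 without WT kidney 1 and 3, and coagulation factor F9 had 0.44 ± 0.21, or 0.17 without that library. Over the 298 reported probes whose liver mean lay more than 2 above their kidney mean, 62.4% of the differences were positive, and 46.6% without WT kidney 1.

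**Figure D5:**
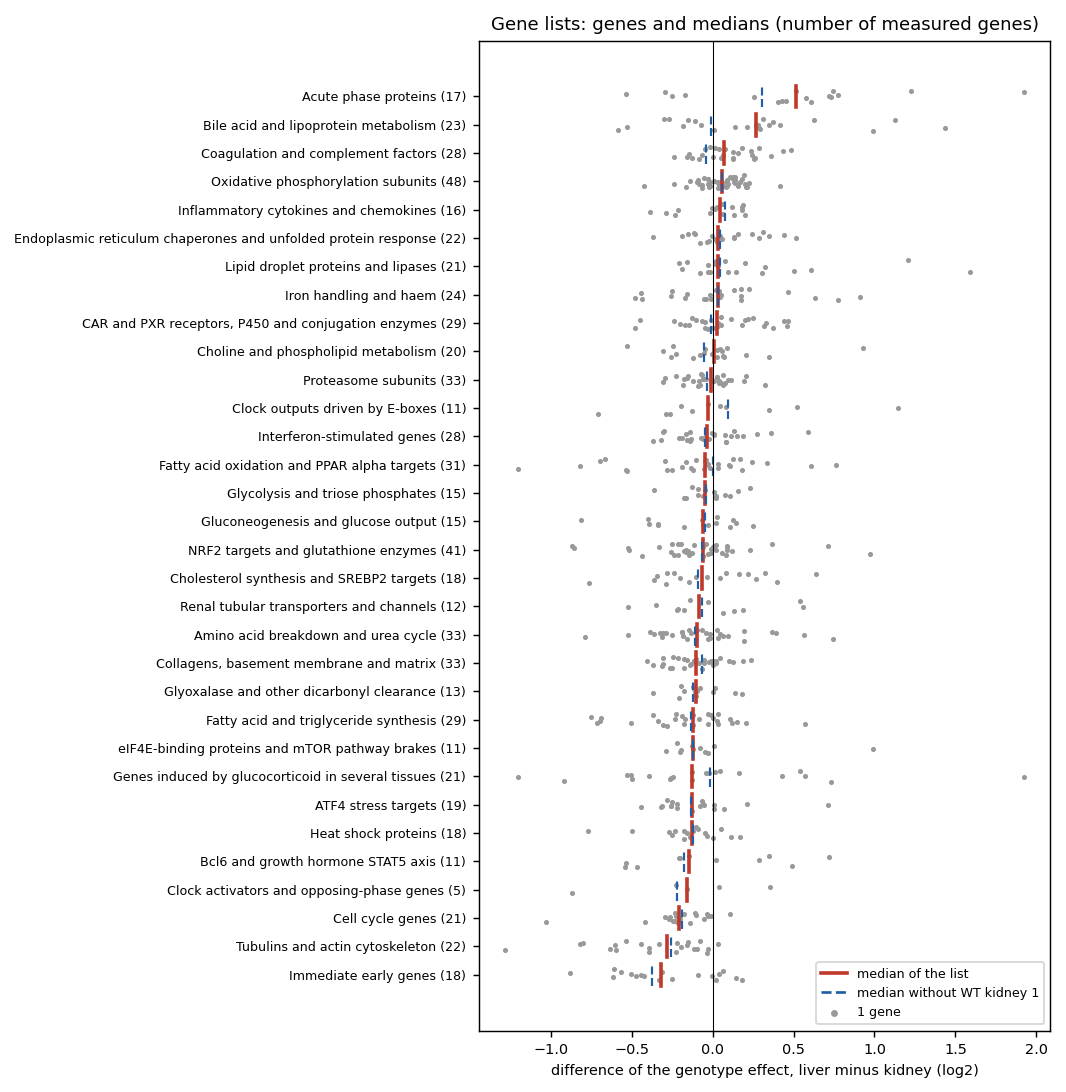
Difference of the genotype effect (liver minus kidney, log2) of each measured gene in the 32 lists as grey points, with the list median in red and the median without WT kidney 1 as a blue dashed mark. Acute phase proteins lie at 0.52 and immediate early genes at -0.32, and the median of bile acid and lipoprotein genes moves to -0.01 without that library.

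Tubulins and other cytoskeletal genes had negative differences almost throughout. Of 22 measured genes, 7 fell in liver, where 0.969% of all probes did, and 0 were called in kidney. Medians were -0.36 in liver and -0.04 in kidney. The differences had a median of -0.28, with 1 gene above 0 and 21 below, 8 of these at an unadjusted p under 0.05 and 0 called. On slide 2 alone the median was -0.07. Tubb5, a widely expressed beta-tubulin, read 11.12, 11.29 and 11.28 in Glo1+/- livers and 11.92, 11.95 and 11.74 in WT livers, against 11.37, 11.23 and 11.27 in Glo1+/- kidneys and 11.30, 11.34 and 11.24 in WT kidneys. It fell in liver (-0.64 ± 0.09, adjusted p = 0.0016) and its kidney groups overlapped (-0.01 ± 0.09), with a difference of -0.63 ± 0.13 (adjusted p = 0.082). Tubb2b, another beta-tubulin, had 9.48, 9.51 and 9.44 in Glo1+/- livers and 11.41, 11.15 and 9.85 in WT livers. Its difference of -1.28 ± 0.36 (adjusted p = 0.27) was -0.28 on slide 2 alone, where WT liver 3 is the 1 WT liver. The alpha-tubulin Tuba1b fell in liver (-0.55 ± 0.09, adjusted p = 0.0031), with a difference of -0.44 ± 0.12 (adjusted p = 0.27). Anxa2, a calcium-dependent membrane linker, fell in liver as well (-0.86 ± 0.17, adjusted p = 0.012), with a difference of -0.82 ± 0.24 (adjusted p = 0.297). The keratin Krt8 differed by -0.60 ± 0.19 (adjusted p = 0.371), with a kidney effect of 0.37 ± 0.13, and on slide 2 these were -0.063 and 0.13.

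Cell cycle genes also had mostly negative differences. Of 21 measured cell cycle genes 1 lay above 0 and 20 below, with a median of -0.21, 4 at an unadjusted p under 0.05 and Ccnd1 called. Medians were -0.08 in liver and 0.07 in kidney. Mcm5, part of the replicative helicase, had -0.42 ± 0.12 (adjusted p = 0.285), from values of 8.47, 8.49 and 8.56 in Glo1+/- livers and 8.73, 8.53 and 8.71 in WT livers, and 8.78, 8.95 and 8.96 in Glo1+/- kidneys and 8.56, 8.56 and 8.77 in WT kidneys. Ccnd2, cyclin D2, fell in liver (-0.50 ± 0.12, adjusted p = 0.043) and had -0.22 ± 0.12 in kidney. Immediate early genes, which respond within minutes to growth and stress signals, had the lowest median of the lists, -0.32 (5 of 18 above 0, 7 below at an unadjusted p under 0.05, 0 called). In liver 4 fell, where 0.969% of all probes did, and in kidney 0 were called. Fos fell in liver (-0.77 ± 0.19, adjusted p = 0.046), with 8.25, 8.26 and 8.17 in Glo1+/- and 9.61, 8.31 and 9.06 in WT. Jun fell too (-0.48 ± 0.08, adjusted p = 0.0039), against -0.17 ± 0.08 in kidney. Gadd45g, a growth arrest gene, had the largest difference of this list (-0.88 ± 0.28, adjusted p = 0.367), and Junb had -0.62 ± 0.32. The vascular factor Klf2 was below WT in every Glo1+/- liver (-0.28 ± 0.10) and above WT in every Glo1+/- kidney (0.28 ± 0.10), with a difference of -0.56 ± 0.13 (adjusted p = 0.159).

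Collagens and basement membrane genes had negative median effects. In liver 8 of 33 measured genes fell and in kidney 1 did (background 0.969% and 0.105%), with medians of -0.25 and -0.15. For 5 of the 33 a Glo1+/- mean lay under the signal threshold, 4 in liver and 2 in kidney, and 0 WT means did. The negative sign of those effects is bound to the choice of probes, so the medians are a description. The difference had a median of -0.10 (10 above 0, 23 below, 0 called). Mmp14, a membrane-bound collagenase, had -0.41 ± 0.15 (adjusted p = 0.484), and Loxl1, which cross-links elastin, had -0.36 ± 0.20. The medians of endothelial markers lay at 9.29 to 9.44 in Glo1+/- livers and 9.59 to 9.89 in WT livers, against 9.69 to 9.94 in Glo1+/- kidneys and 9.81 to 10.10 in WT kidneys. In whole tissue, fewer cells of a type and less RNA per cell cannot be told apart.

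The clock is driven by CLOCK and BMAL1, which bind E-box sequences before their target genes. E-box outputs had median effects of 0.36 in liver and 0.33 in kidney over 11 measured genes and a median difference of -0.03 (5 above 0, 0 called). In liver 4 rose and in kidney 1, Per1 (background 0.817% and 0.144%). Promoters are shown for the measured outputs that hold the E-box sequence. The palindrome CACGTG, identical on both strands, was present in the window from 250 bases before to 50 bases after the start in 7.15% of 32851 RefSeq windows of mouse assembly GRCm38.p6, and in 3 of the 9 measured clock outputs that had a window. The first share counts windows. The second counts genes with the sequence in any of their windows, so the shares cannot be compared directly. The stretches below hold it in capitals, read 5′ to 3′ on the strand of the gene: Per1 at chr11:69098756-69098815 on the plus strand, Ciart at chr3:95882254-95882313 on the minus strand, and Tef at chr15:81802519-81802578 on the plus strand.
Per1: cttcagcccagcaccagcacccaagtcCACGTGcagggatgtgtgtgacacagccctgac
Ciart: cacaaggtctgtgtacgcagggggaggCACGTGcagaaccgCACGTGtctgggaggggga
Tef: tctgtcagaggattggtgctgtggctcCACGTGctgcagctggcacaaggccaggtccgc
A match describes letters and says nothing of binding.

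Per1, a light- and glucocorticoid-responsive clock repressor, had 10.71, 10.67 and 10.64 in Glo1+/- livers and 10.00, 10.20 and 10.12 in WT livers. Kidneys had 10.10, 10.30 and 10.00 in Glo1+/- and 9.001, 9.65 and 9.67 in WT. It rose in both organs (0.57 ± 0.14 in liver, adjusted p = 0.044, and 0.69 ± 0.14 in kidney, adjusted p = 0.041), and its difference of -0.13 ± 0.20 was 0.09 without WT kidney 1. Ciart, a repressor of CLOCK and BMAL1, rose in liver (1.09 ± 0.17, adjusted p = 0.0028), with kidney groups apart upward (0.57 ± 0.17, adjusted p = 0.281). Its difference of 0.52 ± 0.24 did not pass (adjusted p = 0.596) and was 0.12 on slide 2. Usp2, a rhythmic ubiquitin protease, had the largest value of the list, 1.15 ± 0.39 (adjusted p = 0.44), from 11.55, 12.003 and 11.90 in Glo1+/- livers and 9.57, 10.12 and 11.32 in WT livers. On slide 2 alone it had 0.22. Nr1d1, the repressor REV-ERB alpha, had -0.71 ± 0.30 and -0.08 on slide 2. Among 5 genes of the opposing phase, 2 lay above 0 and 0 were called (median -0.16): Nfil3, a repressor of D-box genes, fell in liver (-0.77 ± 0.16, adjusted p = 0.016) with a difference of -0.87 ± 0.22 (adjusted p = 0.211), and Cipc had 0.36 ± 0.14. Genes induced by glucocorticoid had medians of 0.14 in liver and 0.19 in kidney and a median difference of -0.13 (8 of 21 above 0, 0 called).

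Genes of the growth hormone axis did not separate the organs by the test. Bcl6, a repressor with male-biased STAT5-regulated expression in liver, fell in liver (-1.77 ± 0.28, adjusted p = 0.0026), with 9.64, 9.70 and 10.73 in Glo1+/- and 11.79, 12.09 and 11.50 in WT. Kidney values were 9.43, 10.06 and 10.80 in Glo1+/- and 11.37, 11.39 and 11.24 in WT, again without overlap (-1.23 ± 0.28, adjusted p = 0.077). The Bcl6 difference was -0.54 ± 0.39 and 0.42 on slide 2 alone. Cish, a feedback inhibitor of STAT5, had 0.72 ± 0.65 and -0.89 on slide 2. Over 11 measured genes the median difference was -0.14, with 5 above 0 and 0 called.

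Chaperones of the endoplasmic reticulum had median effects of -0.17 in liver and -0.28 in kidney over 22 measured genes and a median difference of 0.04 (13 above 0, 0 called). In kidney Sec61b, a subunit of the protein translocation channel, fell (-0.51 ± 0.10, adjusted p = 0.033), with 10.91, 11.08 and 10.91 in Glo1+/- and 11.53, 11.53 and 11.36 in WT. Pdia3, a disulphide isomerase, had -0.17 ± 0.09 in liver and fell in kidney as well (-0.48 ± 0.09, adjusted p = 0.033). Their differences of 0.44 ± 0.14 and 0.31 ± 0.13 did not pass (adjusted p = 0.368 and 0.555). Selenos, which takes part in the export of misfolded proteins, had the largest value (0.52 ± 0.15, adjusted p = 0.272), and Calr, calreticulin, had 0.35 ± 0.17. ATF4 stress targets had a median of -0.13 (5 of 19 above 0, 0 called). Among them Chac1, which degrades glutathione, had 0.71 ± 0.24 (adjusted p = 0.416) and Nupr1 had -0.44 ± 0.45, which was 0.33 on slide 2. Heat shock proteins had a median of -0.13 (4 of 18 above 0, 0 called), led by the small heat shock proteins Hspb1 (-0.77 ± 0.30) and Cryab (-0.50 ± 0.52, and 0.32 on slide 2). Binding proteins of eIF4E and other brakes of the mTOR pathway had a median of -0.12 (2 of 11 above 0, 0 called). Eif4ebp3, which sequesters the cap-binding factor eIF4E, rose in liver (1.43 ± 0.22, adjusted p = 0.0028), and its kidney groups were apart upward (0.44 ± 0.22, adjusted p = 0.69). Its difference was 0.99 ± 0.32 (adjusted p = 0.383) and 0.13 on slide 2, where WT liver 3 had 9.80 beside 8.54 and 8.47 in the other WT livers. Sesn1, a sestrin that restrains mTOR, had -0.28 ± 0.15.

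Among 13 measured enzymes that clear methylglyoxal and related carbonyls, Glo1 was the 1 gene called lower in liver and the 1 called lower in kidney. The median difference was -0.10, with 4 above 0 and 0 called, and 0 at an unadjusted p under 0.05. Akr1b8, an aldo-keto reductase, had the largest value (-0.37 ± 0.18, adjusted p = 0.634), followed by Aldh1a1, a retinaldehyde dehydrogenase (-0.20 ± 0.19, and 0.16 on slide 2). NRF2 targets and glutathione enzymes had a median of -0.06 (16 of 41 above 0, 0 called), with the transferases Gstp2 at 0.98 and Gsta1 at -0.87 ± 0.21 (adjusted p = 0.176), or -1.40 on slide 2. Gsta1 fell in liver (-0.83 ± 0.15, adjusted p = 0.0069) and lay near the floor in kidney. The xenobiotic receptors with P450 and conjugation enzymes had a median of 0.03 (16 of 29 above 0, 0 called), with Cyp2b10 at -0.48 ± 0.28 and Alas1, the first enzyme of haem synthesis, at 0.46 ± 0.38, which was -0.27 on slide 2.

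The remaining lists gave 0 calls for the difference. Iron and haem genes had a median of 0.03 (13 of 24 above 0). The transferrin receptor Tfrc read 10.66, 10.71 and 10.88 in Glo1+/- kidneys and 12.05, 11.62 and 11.57 in WT kidneys, with a kidney effect of -0.996 ± 0.29 (adjusted p = 0.246) and a difference of 0.91 ± 0.40, or -0.04 on slide 2. Renal tubular transporters had a median of -0.08 (5 of 12 above 0). Among them Aqp11, an intracellular aquaporin, rose in liver (0.52 ± 0.09, adjusted p = 0.0044), against -0.02 ± 0.09 in kidney, with a difference of 0.54 ± 0.12 (adjusted p = 0.135). The anion exchanger Slc4a1 had 0.56 ± 0.23. Proteasome subunits had a median of -0.01 (15 of 33 above 0), with Psme2 at 0.32 ± 0.13 and Psmd6 at -0.31 ± 0.16. Oxidative phosphorylation included Atp5a1 at -0.42 ± 0.17. Interferon-stimulated genes had a median of -0.04 (12 of 28 above 0), with Ifi27 at 0.59 ± 0.22 and Oasl2 at -0.37 ± 0.15. Cytokines and chemokines had a median of 0.04 (10 of 16 above 0), with the neutrophil chemokine Cxcl1 at -0.38 ± 0.39 and Il1b at -0.29 ± 0.10. Il1b, the cytokine interleukin-1 beta, fell in liver (-0.38 ± 0.07, adjusted p = 0.0088). Further differences that moved by over 1.5 times on slide 2 included those of Hspb1 (-0.29), Junb (-0.22), Cipc (0.11), Akr1b8 (-0.24), Atp5a1 (-0.13), Psmd6 (-0.12), Psme2 (0.51), Slc4a1 (0.30), Ifi27 (0.90), Oasl2 (-0.22), Pdia3 (0.21) and Calr (0.56). Slc25a20 moved from -0.05 to -0.43, Eci2 from 0.03 to 0.12 and Angptl4 from -0.53 to -0.93. Lpin1 moved from 0.57 to 0.27, Acaca from -0.28 to -0.08, Srebf1 from -0.30 to -0.10 and Ccnd2 from -0.27 to -0.58.

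Adipose tissue and aorta, with 3 arrays per genotype each, give the same probes a further description with no test. Ndufaf4 had a Glo1+/- minus WT difference of 0.01 in adipose tissue and -0.41 in aorta, and Cpsf4l lay near the floor in both. The aorta value of Ndufaf4 rests on Glo1+/- aorta 3, which read 10.73 beside 12.06 and 11.97, against 11.93 to 12.07 in WT aortas. That library also had the highest Plin4, at 14.87 beside 13.14 and 13.34 in the other Glo1+/- aortas. Ccnd1 had 0.44 in adipose tissue and 0.14 in aorta, the sign of kidney, but its genotypes overlapped in both. Mmd2, which fell in liver, had 1.00 in adipose tissue and -0.01 in aorta. Cyp2d12 had 0.70 and 0.01. In Glo1+/- adipose tissue the SDs were 1.23 for Mmd2 and 1.60 for Cyp2d12. Marcksl1 had 0.38 and -0.05, and the brighter called Pcsk4 probe 0.26 and 0.07. Hp had 0.003 and 0.32 on its first probe and -0.35 and 0.27 on its second. Acly had -1.01 in adipose tissue and -0.44 in aorta, the sign of liver. Its aortas read 14.55, 14.46 and 13.71 in Glo1+/- and 14.90, 14.81 and 14.34 in WT, so Glo1+/- aorta 3 was again the lowest. Acaa1b had -0.44 in adipose tissue and 0.11 in aorta, and ILMN_1216322 had -0.21 and 0.46, with SDs of 0.49 in Glo1+/- and 0.70 in WT adipose tissue.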

How the data were processed

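Expression was measured on Illumina mouse bead arrays, per the labels' protocols from column-purified total RNA amplified to biotin-labelled cRNA. The deposited log2 values (lowest 7.95563, highest 15.3791) were made by the authors with lumi 2.32.0, per the submitters' processing notes. No source used here names their background correction, transformation or normalization. Gene names come from the platform annotation and were found in the GRCm38.p6 gene table for 23962 of the 23978 probes with 1 gene (0 with several, 1719 with none).

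The 12 liver and kidney arrays were fitted with limma 3.58.1 in R 4.3.3 as 4 group means, with moderated variances following a trend and Benjamini-Hochberg adjustment over all 25697 probes at 0.05. The probes and the 32 gene lists were chosen with earlier results of these data known. Named genes are the called or nearest probes, the called members of each list or otherwise its largest absolute differences of either sign, and genes said to be chosen later. The number of arrays limits the precision. The fit was also run on simulated data with equal spread in the 4 groups, which does not test unequal spreads or the floor. Alternatives covered normalization, filter, variance model, slide, replicate number and leaving out each array.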

Additional observations from a re-analysis of the deposited data

Results flagged for a closer look

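The 13 probes below were singled out because the test of the difference itself, liver effect minus kidney effect in limma, passed at an adjusted p under 0.05. The positive differences on the log2 scale were 1.23 for Hp and 0.93 for a second Hp probe, 0.88 for Ndufaf4, 0.85 for Cpsf4l, 0.65 for Pcsk4 and 0.83 for a second Pcsk4 probe, and 0.97 for ILMN_1244836. The negative differences were -1.03 for Ccnd1, -1.02 for Cyp2d12, -0.71 for Mmd2, -0.70 for Acaa1b, -0.63 for Marcksl1 and -2.34 for ILMN_1216322.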

How the results depend on the processing

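For the difference, 13 reported probes were called. The count was 2 when fitted over the reported probes alone, 32 with robust variances, 58 with array weights, 4 with all 24 arrays, 20 and 4 with the slide as a fixed and as a random block, 7 without WT kidney 1 and 3, and 1 to 185 when 1 array was left out. It was 5, 5 and 6 without Glo1+/- liver 1, 2 and 3, 27 without WT liver 1, 6 and 2 without Glo1+/- kidney 1 and 2, and 8 and 3 without WT kidney 1 and 2. For liver (382 called) it was 98 with 24 arrays, 1372 with the slide as a fixed block, 146 with the 6 liver arrays alone and 158 to 610 leaving 1 array out. For kidney (50 called) it was 145 with array weights, 8 with 24 arrays, 23 with the slide as a random block, 89 with the 6 kidney arrays alone, 20 without WT kidney 1 and 3, and 13 to 135 leaving 1 array out. Liver and kidney samples of the same replicate number had correlations of deviations of -0.06 to 0.04 in Glo1+/- and 0.11 to 0.26 in WT. Not every pair was over 0.1, so the numbers were not taken as pairing, although the WT values leave some sharing possible, and the replicate block gave 22 calls as a random term and 17 as a fixed term. Sign changes were counted in 38 of the gene values under the alternatives, and none was in a called probe. Alternatives that alter only the variance model or the filter cannot change a sign. With the slide as a fixed block the differences became 0.16 for Aldh1a1, -0.89 for Cish, 0.42 for Bcl6, 0.42 for G6pc, -0.052 for Pfkfb2, -0.27 for Alas1, 0.33 for Nupr1, 0.32 for Cryab, -0.043 for Tfrc and -0.013 for Cyp4a31. Without WT kidney 1 and 3 they were -0.065 for Alas1, 0.35 for Nupr1, 0.24 for Cryab, -0.033 for Eci2, -0.026 for Hpx and 0.088 for Per1, and with array weights -0.086 for Glo1 and -0.00019 for Eci2. Leaving out 1 array gave -0.17 to 0.21 for Glo1, -0.023 to 1.17 for Mat1a, -0.19 to 0.070 for Slc25a20, -0.12 to 0.88 for Hpx, -0.24 to 0.094 for Per1, -0.84 to 0.046 for Nupr1, -0.96 to 0.098 for Cryab, -0.033 to 0.081 for Eci2, and -0.89 to 0.027 for Cxcl1. The cause of these changes was not tested. Slide and group are partly confounded, and probes near the floor limit what can be measured.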

Other observations

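Outside the reported probes, 9 further probes passed for the difference, each too dim in liver or in kidney for the signal rule. A second Gpcpd1 probe had 1.19 ± 0.11 (limma, adjusted p = 3.53e-05), where the reported Gpcpd1 probe had 0.93 and did not pass. Nr1i3, the xenobiotic receptor CAR, had 1.02 ± 0.14 (adjusted p = 0.0055), and Cyp2c55, a cytochrome P450, had -1.07 ± 0.15 (adjusted p = 0.0055). Fgf21, a hepatokine of fasting, had 0.59 ± 0.10 (adjusted p = 0.030). Both probes of the integrin gene Itgb6 had positive differences, 0.83 ± 0.14 and 0.69 ± 0.12. Alb, a hepatocyte marker at the floor in kidney, had -0.68 ± 0.11 (adjusted p = 0.030). A further Pcsk4 probe had 0.68 ± 0.11 (adjusted p = 0.015), and Pde6c had 0.57 ± 0.09 (adjusted p = 0.015).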
